A study of Mus musculus with 8 samples.

Results

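The acute phase genes Saa1, Saa2, Saa3, Saa4, Lcn2, Orm1, Orm2 and Orm3 were followed in the livers of mice given a high-fat diet, arsenite in the drinking water, or both. They were picked by name. The array measures transcript clusters, probe groups that mostly stand for 1 gene, and those annotated with one of these 8 symbols were taken: 8 of the 35556 clusters, 1 per gene and each with 1 symbol. All 8 lay above the low-signal limit (a mean log2 signal over all 8 arrays above 6.975), as did 11963 of 19938 named genes.

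The animals were 40 male C57Bl/6J mice, 10 per group, housed for 10 weeks by the labels' protocols, while the source label speaks of 90 days. The HFD+As group ate a high-fat diet with 42% of calories from fat and drank sodium arsenite in deionized water (3 mg iAs/L, where iAs is inorganic arsenic). The HFD group ate the same diet with plain deionized water, and the LFD+As group ate a low-fat diet with 13% of calories from fat and drank the arsenite water. The LFD group had the low-fat diet and plain water. RNA was extracted mouse by mouse and mixed in equal amounts from 5 mice per pool, so each group has 2 arrays (replicate 1 and replicate 2) that are pools of different animals. The spread between arrays is therefore a spread between pools, and the mouse-to-mouse spread was not measured. The table's values are log2 signals, so a difference of 1 is a 2-fold change. The liver label held on the arrays: albumin (Alb) lay between 14.44 and 14.48 log2 units in all 8, and 9 of 9 hepatocyte markers on the array were above the low-signal limit.

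Serum amyloid A proteins are small apolipoproteins that the liver pours into blood during the acute phase response, when they replace part of the protein of high-density lipoprotein. Interleukin-6 acting through STAT3, interleukin-1 acting through NF-kappaB, and C/EBP factors drive the hepatic genes. Saa1 and Saa2 are the main acute phase forms in the mouse, Saa3 is also made by macrophages and fat cells, and Saa4 is a form that the liver makes at steady levels. Lcn2 encodes lipocalin 2, which binds iron-carrying siderophores of bacteria and is stored in neutrophil granules as well as made by hepatocytes. The Orm genes encode orosomucoid, or alpha-1-acid glycoprotein, a plasma carrier of drugs and lipids.

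The serum amyloid A genes lie together on chromosome 7, the Orm genes on chromosome 4 and Lcn2 on chromosome 2. RefSeq promoter windows (build GRCm38.p6, 250 bases before and 50 after a transcription start) were matched for 7 of the 8 genes. Orm1 had none. Those of the members with the widest ranges of signal are shown because Saa1 and Saa2 are near copies of each other and because all of them hold the same short motif. The windows are chr7:46742931-46743230 (minus strand) for Saa1, chr7:46751583-46751882 (plus) for Saa2, chr7:46715627-46715926 (minus) for Saa3, chr2:32387690-32387989 (minus) for Lcn2 and chr4:63362199-63362498 (plus) for Orm2. Capitals mark matches to the C/EBP letters TTGCNNAA and, once in Lcn2, to the glucocorticoid receptor letters ACANNNTGT, and each window runs 5′ to 3′ along its gene.
Saa1: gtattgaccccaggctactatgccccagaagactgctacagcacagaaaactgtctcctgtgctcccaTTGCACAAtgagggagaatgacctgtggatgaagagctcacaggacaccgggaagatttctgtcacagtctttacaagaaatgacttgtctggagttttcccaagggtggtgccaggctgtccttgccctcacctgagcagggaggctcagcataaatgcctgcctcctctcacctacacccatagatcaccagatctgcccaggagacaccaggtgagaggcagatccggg
Saa2: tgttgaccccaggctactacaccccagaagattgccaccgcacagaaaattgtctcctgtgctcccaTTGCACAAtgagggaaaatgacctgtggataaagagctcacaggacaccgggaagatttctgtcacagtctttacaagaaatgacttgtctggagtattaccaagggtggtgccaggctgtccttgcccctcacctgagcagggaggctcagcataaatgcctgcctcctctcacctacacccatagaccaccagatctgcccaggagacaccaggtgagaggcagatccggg
Saa3: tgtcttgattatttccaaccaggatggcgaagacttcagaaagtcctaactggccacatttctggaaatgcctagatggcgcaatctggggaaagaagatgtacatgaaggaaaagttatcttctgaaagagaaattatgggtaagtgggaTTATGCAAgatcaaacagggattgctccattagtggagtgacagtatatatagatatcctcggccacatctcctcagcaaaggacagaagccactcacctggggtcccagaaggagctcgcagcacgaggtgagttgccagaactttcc
Lcn2: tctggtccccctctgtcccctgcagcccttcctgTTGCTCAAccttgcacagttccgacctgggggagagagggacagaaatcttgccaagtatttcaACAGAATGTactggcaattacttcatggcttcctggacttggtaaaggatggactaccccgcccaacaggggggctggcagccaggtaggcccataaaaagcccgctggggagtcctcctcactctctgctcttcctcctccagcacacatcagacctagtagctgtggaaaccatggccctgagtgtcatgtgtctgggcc
Orm2: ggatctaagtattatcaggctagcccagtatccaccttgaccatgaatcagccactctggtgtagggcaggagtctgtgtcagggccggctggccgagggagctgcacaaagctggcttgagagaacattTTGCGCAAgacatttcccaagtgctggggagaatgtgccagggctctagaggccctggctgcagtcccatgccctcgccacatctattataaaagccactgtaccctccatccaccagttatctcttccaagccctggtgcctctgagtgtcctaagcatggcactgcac

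The Saa1 and Saa2 windows were identical at 287 of 301 aligned positions (95.3%), and those of Orm2 and Orm3 at 264 of 305 (86.6%). Every other pair of windows fell between 47.2% and 54.2%. The C/EBP letters were found on either strand in 7 of 7 member windows, against 10.8% of 32851 RefSeq windows of the same length. They began 182 bases before the start in Saa1, 183 in Saa2, 99 in Saa3, 216 in Lcn2, 120 in Orm2 and 121 in Orm3, and 245 and 52 bases before it in Saa4. The glucocorticoid receptor letters were found in 2 member windows, Lcn2 and Orm3, against 6.8% of all windows. The NF-kappaB letters GGGANTTNC (4.3% of all windows) and the STAT letters TTCNNNGAA (8.3%) were in none of the 7. Both strands were searched and no match of one motif overlapped a match of another. A match is a run of letters and not a shown binding site, and the missing ones say only that these letters are not in these windows. The starts used for Saa3, Saa1 and Orm3 lie 3939, 201 and 89 bases inside the outer end of the annotated gene. Array probes of close relatives may bind each other's transcripts, so a signal named Saa1 or Saa2, or Orm1, Orm2 or Orm3, can hold part of its neighbour's. Likeness of promoter windows does not show this, and probe sequences were not compared.

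Saa1, Saa2 and Saa3, the acute phase serum amyloid A genes, were lowest in LFD livers. For Saa1 and Saa2 the HFD pools had the highest mean, while those of Saa3 in HFD+As and HFD were close (9.35 and 9.41). Saa1 read 9.07 and 8.88 in the HFD+As pools, 10.08 and 10.48 in HFD, 10.07 and 8.66 in LFD+As, and 5.04 and 7.51 in LFD. All 6 exposed pools lay above both LFD pools, and the LFD pools themselves stood 2.47 log2 units apart. The LFD mean of Saa1 (6.28) was below the low-signal limit, which was set on means over all 8 arrays. Differences of Saa1 from LFD thus start from a signal that may be partly background. Saa2 read 12.65 in both HFD+As pools, 13.37 and 13.69 in HFD, 13.54 and 12.60 in LFD+As, and 9.17 and 12.32 in LFD. LFD replicate 2 was thus close to LFD+As replicate 2 and the HFD+As pools, while LFD replicate 1 was far below. Saa3 read 9.61 and 9.09 in HFD+As, 8.64 and 10.18 in HFD, 9.28 and 8.68 in LFD+As, and 7.34 and 7.50 in LFD. Here the LFD pools were close together and the HFD pools wide apart, with HFD replicate 1 the lowest of the 6 exposed pools and HFD replicate 2 the highest. Saa4, the steady form, read 13.01 and 13.11 in HFD+As, 13.42 and 13.11 in HFD, 13.16 and 13.26 in LFD+As, and 12.79 in both LFD pools. Its whole range over the 8 arrays was under 1 log2 unit, and both LFD pools were below every other pool. In pooled whole liver, fewer cells of a type and less RNA per cell cannot be told apart.

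Lipocalin 2 followed the pattern of Saa1. Lcn2 read 11.57 and 12.06 in HFD+As, 12.49 and 12.97 in HFD, 12.55 and 11.40 in LFD+As, and 9.05 and 10.28 in LFD. No exposed pool reached down to an LFD pool.

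Of the orosomucoid genes, Orm2 varied most. Orm2 read 11.74 and 11.95 in HFD+As, 12.49 and 13.42 in HFD, 12.71 and 12.04 in LFD+As, and 11.43 and 12.01 in LFD, so that the HFD+As pools lay between the LFD pools. Orm3 read 8.39 and 8.91 in HFD+As, 8.82 and 9.24 in HFD, 8.67 and 8.71 in LFD+As, and 8.55 and 8.54 in LFD. Orm1 lay between 13.46 and 13.83 on all arrays, near the top of the signal range. For all 3 the HFD mean was the highest of the 4 group means.

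**Figure D1:**
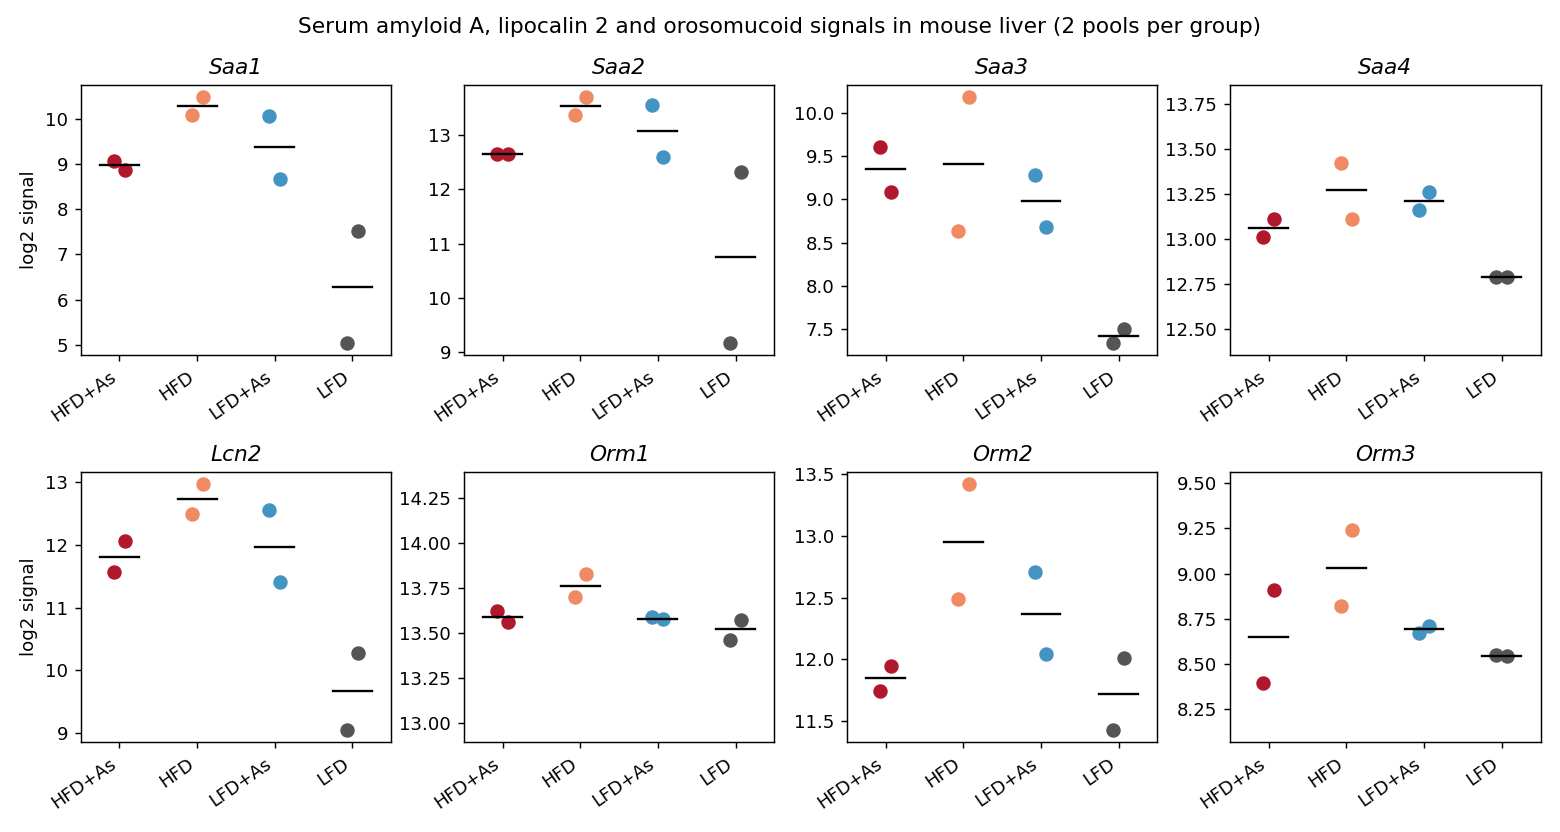
Log2 signal (vertical axis, own scale in each panel, at least 1.5 units tall) of each gene in the 4 groups. Points are the 2 pools of 5 mice and lines are group means; the LFD pools of Saa1 stand at 5.04 and 7.51, below all exposed pools, and Orm1 stays between 13.46 and 13.83.

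High-fat feeding alone raised 3 of the 8 genes. Against LFD, Saa1 rose by 4.005 log2 units in HFD (16.1-fold, SE 0.57, limma adjusted p = 0.00913), Lcn2 by 3.06 (8.36-fold, SE 0.37, adjusted p = 0.00417) and Saa3 by 1.99 (3.97-fold, SE 0.355, adjusted p = 0.0275). These are 3 of 8 members, where 0.343% of all tested genes were called higher. The other 5 had positive values that did not pass: Saa2 2.78 (SE 0.65, adjusted p = 0.1), Orm2 1.24 (SE 0.28, adjusted p = 0.0827), Orm3 0.49, Saa4 0.47 and Orm1 0.25. The limma fit draws each gene's spread between pools toward that of all tested genes. For genes with wide gaps between pools, such as Saa1, Saa2 and Lcn2, the SE is thus smaller than their own pools would give. In all 8 both HFD pools lay above both LFD pools, a state found in 21.7% of tested genes. The members' median was 1.61 log2 units and that of all tested genes 0.013. Without LFD replicate 1, Saa1 was at 2.77, Saa2 at 1.21 and Lcn2 at 2.45. In that fit calls were lost over all tested genes, those of the members with them. Without HFD replicate 2, Lcn2 alone was called (2.82), with Saa1 at 3.80 and Saa3 at 1.22, and without LFD replicate 2 Saa3 was not called (2.07) and Saa2 stood at 4.36 (adjusted p = 0.000337). Orm2 was 0.77 without HFD replicate 2 and passed at 1.71 without HFD replicate 1 (adjusted p = 0.0121), and both Saa2 (adjusted p = 0.0219) and Orm2 (adjusted p = 0.0118) passed without either LFD+As array.

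Arsenite on the low-fat diet gave positive values for all 8 genes, and 1 passed. Lcn2 rose by 2.31 log2 units in LFD+As (4.94-fold, SE 0.37, adjusted p = 0.0396), 1 of 8 members, where 0.0251% of tested genes were called higher. Saa1 stood at 3.09 (SE 0.57, adjusted p = 0.0898), Saa2 at 2.32 (SE 0.65, adjusted p = 0.616) and Saa3 at 1.56 (SE 0.355, adjusted p = 0.269). Orm2 was at 0.66, Saa4 at 0.42, Orm3 at 0.15 and Orm1 at 0.06, none of which passed. All 8 had both LFD+As pools above both LFD pools, against 12.7% of tested genes, and their median was 1.11 beside -0.008 over all tested genes. Leaving out LFD replicate 1 or LFD+As replicate 1 ended the Lcn2 call (1.69 and 1.73), in fits that lost calls over all tested genes too. The Lcn2 call was also lost at an unchanged 2.31 without either HFD+As array. Saa2 stood at 0.75 without LFD replicate 1 and passed at 3.90 without LFD replicate 2 (adjusted p = 0.001), and Saa3 passed without either HFD array (adjusted p = 0.0122). Saa1 was 1.85 without LFD replicate 1 and passed without LFD replicate 2 (4.32, adjusted p = 0.00375) or LFD+As replicate 2 (3.80, adjusted p = 0.00291).

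With high-fat diet and arsenite together, the serum amyloid A and lipocalin genes were again above LFD, and the orosomucoid genes were near it. Saa1 rose by 2.70 log2 units in HFD+As (6.50-fold, SE 0.57, adjusted p = 0.00971), Lcn2 by 2.15 (4.43-fold, SE 0.37, adjusted p = 0.00518) and Saa3 by 1.93 (3.82-fold, SE 0.355, adjusted p = 0.00603). These 3 of 8 members compare with 3.59% of tested genes called higher. Saa2 was at 1.90 (SE 0.65, adjusted p = 0.063) and Saa4 at 0.27 (SE 0.13, adjusted p = 0.164). Orm2, Orm3 and Orm1 stood at 0.13, 0.10 and 0.07 with intervals (95%) of -0.47 to 0.72, -0.26 to 0.47 and -0.17 to 0.32. Pools did not overlap for 5 members, the serum amyloid A genes and Lcn2, against 13.5% of tested genes higher without overlap, and the members' median was 1.09 beside -0.095 over all tested genes. Without LFD replicate 1 none of the 3 calls held (Saa1 1.47, Lcn2 1.53, Saa3 1.85), and without HFD+As replicate 1 Saa1 (2.61) and Saa3 (1.68) lost theirs. Saa2 was 0.325 without LFD replicate 1 and passed without LFD replicate 2 (3.48, adjusted p = 0.00153) or either LFD+As array (adjusted p = 0.0302). The 3 comparisons with LFD share its pools, so they are not independent of one another.

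**Figure D2:**
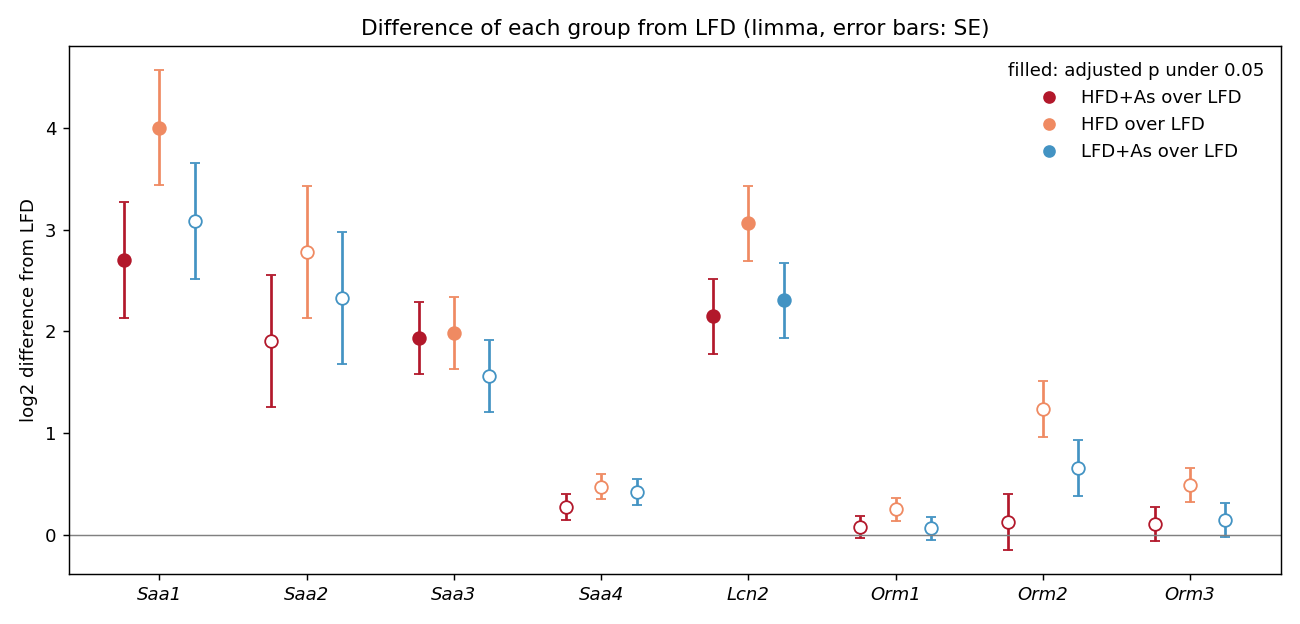
Log2 difference of each group from LFD for the 8 genes, with the standard error from limma (2 pools per group); filled points passed an adjusted p of 0.05. HFD values run from 0.25 (Orm1) to 4.005 (Saa1), those of Saa3 in HFD+As (1.93) and HFD (1.99) lie within their errors of each other, and the 3 Orm genes of HFD+As lie between 0.07 and 0.13.

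On the high-fat diet, 1 of the 8 genes was called lower with arsenite. Orm2 fell by 1.11 log2 units in HFD+As against HFD (2.16-fold, SE 0.28, adjusted p = 0.0473), where 3.25% of tested genes were called lower. All 8 values were negative, but only 27.7% of all tested genes were positive in this comparison. Saa1 stood at -1.30 (SE 0.57, adjusted p = 0.169), Lcn2 at -0.92 (SE 0.37, adjusted p = 0.142), Saa2 at -0.88 (SE 0.65, adjusted p = 0.405), Orm3 at -0.39, Saa4 at -0.20 and Orm1 at -0.17. Each SE also takes in the LFD and LFD+As pools, which were wide apart for Saa1, Saa2 and Lcn2. With only HFD+As and HFD in the limma fit, Saa1 (adjusted p = 0.000665), Saa2 (0.0051) and Lcn2 (0.0157) passed too. That fit called 347 of 11963 tested genes lower. Each of these 3 genes passed in 1 of 15 alternative settings. Saa3 had -0.05 with an interval (95%) of -0.82 to 0.71, and 0.72 without HFD replicate 2. For Saa1, Saa2, Lcn2, Orm1 and Orm2 both HFD+As pools were below both HFD pools, 5 of 8 where 45.8% of tested genes were lower without overlap. The members' median was -0.63, and the median of all tested genes was itself below 0 at -0.125. The Orm2 value was -0.64 without HFD replicate 2 and -1.58 without HFD replicate 1. Its call was lost without HFD replicate 2 (adjusted p = 0.121), HFD+As replicate 1 (adjusted p = 0.24), HFD+As replicate 2 (adjusted p = 0.07) or either LFD array (adjusted p = 0.0668), and with the replicate block (adjusted p = 0.0523). The departure of each array from a gene's mean over the 8 arrays also followed the genomic span of genes. Its rank correlations with span were -0.454 and -0.293 in HFD+As, 0.245 and -0.136 in HFD, 0.220 and 0.346 in LFD+As, and 0.342 and 0.138 in LFD. As the mean is shared, the signs of the arrays depend on one another. The members span 2481 to 7618 bases, and the 1906 tested genes of that span had a median of -0.02 in HFD+As against HFD. With the span trend removed Orm2 was at -1.11 (adjusted p = 0.138).

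The effect of arsenite on the high-fat diet was set directly against its effect on the low-fat diet. This interaction was negative for all 8 members, with Saa1 at -4.39 (SE 0.80, adjusted p = 0.103), Lcn2 at -3.22 (SE 0.52, adjusted p = 0.0591), Saa2 at -3.21 (SE 0.92, adjusted p = 0.221), Orm2 at -1.77 (SE 0.39, adjusted p = 0.149) and Saa3 at -1.61 (SE 0.50, adjusted p = 0.251). Saa4 was at -0.62, Orm3 at -0.53 and Orm1 at -0.24. By limma 0 members passed, as did 0 of all tested genes, while 7 of 8 members had an unadjusted p under 0.05 with a negative sign, against 12.4% of tested genes. The members' median was -1.69 beside -0.122 over all tested genes. For Saa1, the sum of the separate differences of HFD and LFD+As from LFD was 7.09, while HFD+As stood at 2.70; for Lcn2 these were 5.37 and 2.15, and for Orm2 1.89 and 0.13. Lcn2 lay between -3.84 and -2.60 with any 1 array left out. It passed without LFD replicate 2 (-3.84, adjusted p = 0.0335), LFD+As replicate 1 (-2.65, adjusted p = 0.0228) or LFD+As replicate 2 (-3.80, adjusted p = 0.000514). Saa1 was -3.16 without LFD replicate 1 and passed without LFD replicate 2 (-5.63, adjusted p = 0.00521) or LFD+As replicate 2 (-5.10, adjusted p = 0.0039). Saa2 was -1.63 without LFD replicate 1 and passed without LFD replicate 2 (-4.78, adjusted p = 0.00167). Saa3 was -0.84 without HFD replicate 2 and passed without HFD replicate 1 (-2.39, adjusted p = 0.035), and Orm2 passed without HFD replicate 1 (-2.23, adjusted p = 0.0443) or LFD+As replicate 2 (-2.10, adjusted p = 0.018).

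**Figure D3:**
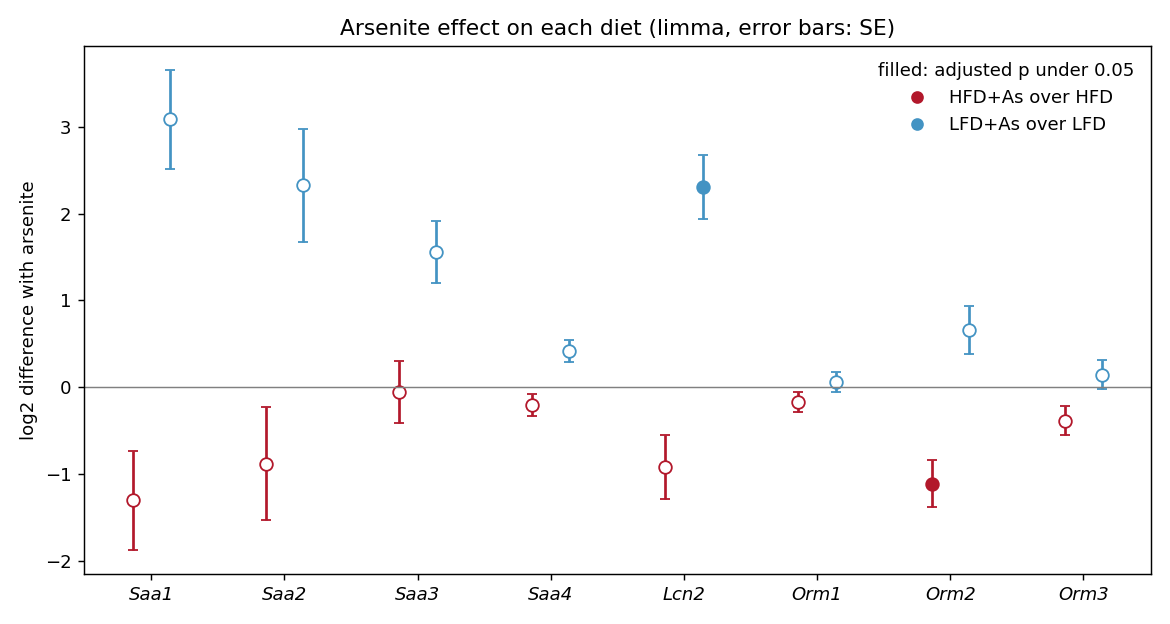
Log2 difference with arsenite on the high-fat diet (red) and on the low-fat diet (blue) for the 8 genes, with standard errors from limma; filled points passed an adjusted p of 0.05. Red points run from -1.30 (Saa1) to -0.05 (Saa3) and blue ones from 0.06 (Orm1) to 3.09 (Saa1); the difference between the diets passed for 0 genes.

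Under arsenite, no difference between the diets passed the threshold for these genes. For HFD+As against LFD+As 0 of 8 members were called by limma and 0 had an unadjusted p under 0.05, against 10.3% of tested genes called in either direction. Saa1 stood at -0.39 (95% interval -1.61 to 0.84), Saa2 at -0.42 (-1.82 to 0.98), Lcn2 at -0.16 (-0.95 to 0.64) and Saa3 at 0.37 (-0.39 to 1.14). The intervals are wide, and the sign of Saa1, Saa2 and Lcn2 turned without LFD+As replicate 1 (0.32, 0.04 and 0.42). Orm2 was at -0.53 (-1.12 to 0.07), Saa4 at -0.15, Orm3 at -0.04 and Orm1 at 0.01. For Orm2 and Saa4 both HFD+As pools lay below both LFD+As pools, a state not counted over all tested genes in this comparison.

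Several of the genes differed widely between pools of the same group. In LFD the gap between pools was 3.15 log2 units for Saa2 and 2.47 for Saa1, the widest and second widest of all 11963 tested genes, and 1.23 for Lcn2, which ranked 9; the median gene had a gap of 0.149. In LFD+As, Saa1 (1.41), Lcn2 (1.15) and Saa2 (0.93) ranked 6, 11 and 29, with a median gap of 0.094. In HFD the gap of Saa3, 1.54, was the widest of all genes, and Orm2 (0.94) ranked 23, while Saa1 and Saa2 had gaps of 0.40 and 0.33. The highest rank of a member in HFD+As was 294, and Saa2 differed by 0.003. Saa4 and Orm1 had gaps of at most 0.31 in any group.

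**Figure D4:**
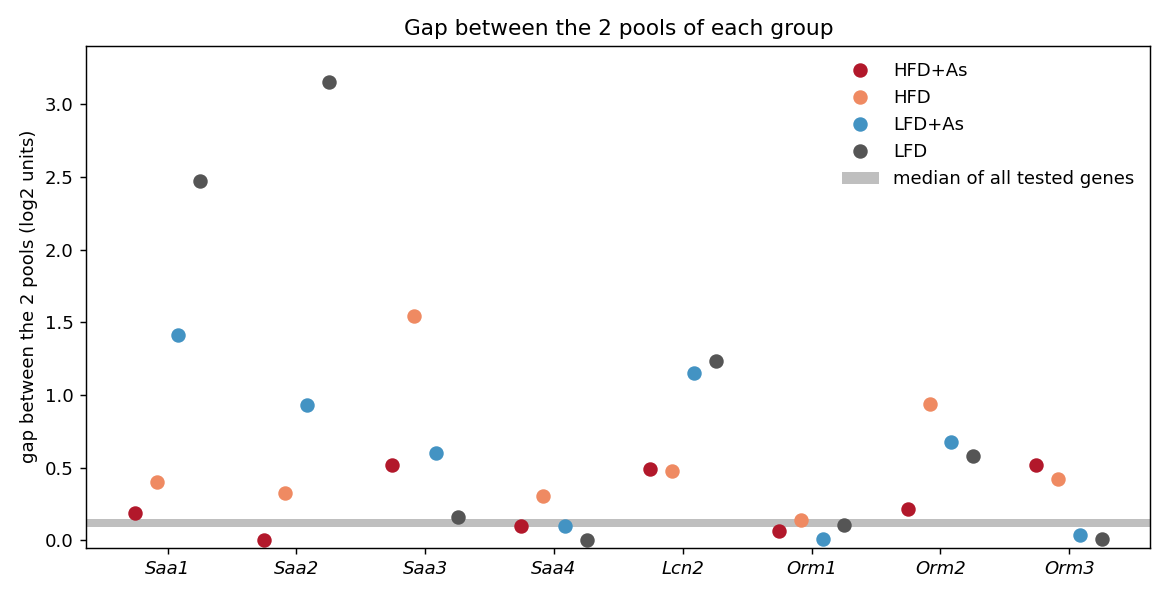
Absolute gap in log2 signal between the 2 pools of each group for the 8 genes; the grey band spans the medians of all tested genes in the 4 groups (0.094 to 0.149). The LFD gaps of Saa2 (3.15) and Saa1 (2.47) stand highest.

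Across the 8 arrays Saa1 was most like Lcn2 (Pearson r = 0.982, Spearman rho = 0.952) and then Saa2 (r = 0.968, rho = 0.976), among tested genes whose signal ranged over at least 1 log2 unit. These are descriptions over arrays that share groups and pools. Next came Fgl1, a liver-secreted fibrinogen-like protein (r = 0.931), the neutrophil chemokine gene Cxcl1 (0.923) and Lrg1, a secreted leucine-rich glycoprotein of the acute phase (0.909). The same genes were the nearest to Lcn2 and to Saa2. Saa3 was closest to Slc17a8 (0.921), Cxcl1 (0.918), St3gal5 (0.901), Ms4a6d (0.884) and Mt2 (0.877). Saa4 was closest to Bhlha15 (0.907), Lbp (0.903), the gene of lipopolysaccharide binding protein, Pck1 (0.892), Lrg1 (0.886) and Steap4 (0.878). Orm1 was closest to the chemokine genes Ccl2 (0.956) and Cxcl14 (0.953), then Il1a (0.882), Fgl1 (0.875) and Slc17a8 (0.870). Orm2 was closest to Cxcl14 (0.847), Fgl1 (0.841), Pgm3 (0.804), Slc41a2 (0.801) and Lcn2 (0.794). Orm3 was closest to Moxd1 (0.874), Pgm3 (0.836), Cxcl14 (0.832), Dnajc12 (0.816) and Apcs (0.800). By Spearman rho, Cxcl14 was less like Orm2 (0.476) and Orm3 (0.571) than by Pearson r. Orm1, Saa4 and Orm3 themselves ranged over only 0.37, 0.63 and 0.86 log2 units, so their likenesses rest on small differences.

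Among the cytokines and signalling genes that act upstream of the acute phase, 20 of 28 listed genes were tested. In HFD against LFD 3 were called higher, where 0.343% of all tested genes were, and 0 lower, where 0.117% were. These were Il1a (0.85, adjusted p = 0.0238), which encodes interleukin-1 alpha, Nfkbiz (0.80, adjusted p = 0.0203) and Nfkbia (0.75, adjusted p = 0.0167). Nfkbiz and Nfkbia encode proteins that bind NF-kappaB factors. The list's median was 0.20 and 17 of 20 were positive. In LFD+As 0 were called in either direction (3 and 5 of all tested genes were, 0.0251% higher and 0.0418% lower) and 3 had an unadjusted p under 0.05, with Tlr2 at 0.36 and Nfkbia at 0.29. In HFD+As against LFD 3 genes of the list were called higher, where 3.59% of all tested genes were. They were Il1a (0.53), Cebpb (0.44), a C/EBP factor gene, and the Toll-like receptor gene Tlr2 (0.42). The kinase gene Jak2 (-0.39) was called lower, where 12.4% of all tested genes were. In HFD+As against HFD Nfkbia fell by 0.49 (adjusted p = 0.0416), 1 of 20 where 3.25% of all tested genes were called lower. No gene of the list was called higher there, where 0.376% of all tested genes were. Without either LFD array the list's calls against LFD were lost in HFD and in HFD+As, and calls over all tested genes were fewer too. Without either HFD array fewer genes of the list were called in HFD. The HFD+As count was 0 without its replicate 1 and 1 without its replicate 2, where Cebpb stood at 0.28 and did not pass. The Nfkbia fall was called with 1 of the 8 arrays left out in turn. Il6 lay between 3.65 and 4.05 on all arrays, below the low-signal limit, and so was not tested.

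Of 20 tested genes for other proteins of the acute phase, 6 were called higher in HFD and 14 did not pass, where 0.343% of all tested genes were called higher. Among the 6 were the metallothionein genes Mt2 (2.93, adjusted p = 0.018) and Mt1 (2.47, adjusted p = 0.0167), Apcs (1.45, adjusted p = 0.0415), which encodes serum amyloid P, and Fgl1 (1.16, adjusted p = 0.0111). With diet and arsenite together 7 were called higher against LFD, where 3.59% of all tested genes were, with Mt2 at 3.14, Mt1 at 2.36, the hepcidin gene Hamp at 1.52 and Apcs at 0.92. In LFD+As 0 were called by limma and 7 had an unadjusted p under 0.05, with Mt2 at 2.33 (adjusted p = 0.16) and Lbp at 0.91 (adjusted p = 0.16), though 19 of 20 were positive (median 0.22). Against HFD, HFD+As livers had lower Itih4 and Lrg1: Itih4 fell by 0.59 (adjusted p = 0.0276) and Lrg1 by 0.59 (adjusted p = 0.045), 2 of 20 where 3.25% of all tested genes were called lower, and 3 of 20 were positive (median -0.35, beside -0.125 over all tested genes). Apcs in HFD was 0.91 without HFD replicate 2 and 2.0 without HFD replicate 1, and it was called with 3 of the 8 arrays left out in turn. Hamp in HFD+As was 0.93 without HFD+As replicate 1, where it did not pass (adjusted p = 0.0613), and 2.10 without HFD+As replicate 2. Without either LFD array the counts against LFD fell in HFD and in HFD+As, as did those over all tested genes. The HFD count also fell without either HFD array. The HFD+As count against LFD was 2 without its replicate 1 and 3 without its replicate 2. In LFD+As 4 were called without LFD+As replicate 2, and against HFD the falls numbered 0 without HFD replicate 1 or HFD+As replicate 1, 4 without HFD replicate 2 and 1 without either LFD array.

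Markers of other cells that make these proteins were set beside them. Of 14 neutrophil markers on the array, 3 were above the low-signal limit, and the granule genes Ngp and Ltf lay between 5.81 and 6.47 on all arrays. S100a8 read 7.31 and 6.93 in HFD+As, 6.57 and 6.97 in HFD, 6.29 and 6.30 in LFD+As, and 6.08 and 6.32 in LFD, so it was highest in the high-fat groups, but it was below the low-signal limit and not tested. S100a9, which was tested, read 7.62 and 7.57 in HFD+As, 7.0 and 7.37 in HFD, 6.99 and 6.93 in LFD+As, and 6.63 and 6.95 in LFD. It was the only called neutrophil marker, higher in HFD+As by 0.81 log2 units against LFD (limma adjusted p = 0.00555) and by 0.64 against LFD+As (adjusted p = 0.0238). The call against LFD was lost without LFD replicate 1 or HFD+As replicate 1. The summed neutrophil signal (log2 of the sum) was 10.56 and 10.55 in HFD+As, 10.41 and 10.47 in HFD, 10.30 and 10.26 in LFD+As, and 10.16 and 10.30 in LFD. As most of the 14 neutrophil markers lay below the low-signal limit, this sum may be partly background. All 14 macrophage and Kupffer cell markers were tested. Their sum was 13.69 and 13.42 in HFD+As, 13.97 and 13.90 in HFD, 13.48 and 13.75 in LFD+As, and 13.72 and 13.67 in LFD. It was highest in HFD, where all 8 members had their highest group mean. In HFD replicate 1, the pool with the highest sum, Saa3 (8.64) was the lowest of its exposed pools. In HFD against LFD 12 of 14 were positive, 0 were called by limma and 7 had an unadjusted p under 0.05 (median 0.28). Of all tested genes 53.3% were positive there and 1232 of 11963 had an unadjusted p under 0.05 (median 0.013). In HFD+As against HFD 1 of the 14 was positive, 4 were called lower and 0 higher (median -0.42). Of all tested genes 3.25% were called lower there, 27.7% were positive and the median was -0.125. Leaving out arrays, the 4 became 0 without HFD replicate 1 or HFD+As replicate 1, 1 without either LFD array, 2 without HFD+As replicate 2 and 6 without HFD replicate 2 or either LFD+As array. Against LFD, where Saa1, Saa3 and Lcn2 rose, 3.59% of all tested genes were called higher in HFD+As and 12.4% lower (median -0.095). Among the 14 markers Marco (0.54) was called higher there and Csf1r (-0.66) and Mpeg1 (-0.49) lower (median -0.26). None of the 3 was called without LFD replicate 2 or HFD+As replicate 1. The adipocyte sum, from 8 markers of which 4 were above the low-signal limit, was 12.15 and 12.37 in HFD+As and 12.48 and 11.90 in HFD. It was 12.23 and 12.50 in LFD+As, and 11.65 and 11.74 in LFD. Most of this sum was Pck1, which is also a gluconeogenesis gene, so the sum is no measure of fat cells. Pck1 read 11.80 and 12.07 in HFD+As, 12.23 and 11.48 in HFD, 11.88 and 12.25 in LFD+As, and 11.16 and 11.27 in LFD. Adipoq lay between 5.36 and 5.90. The part of these cells in the members' signals was not tested.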

How the data were processed

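Liver RNA pools were hybridized to Affymetrix arrays. The authors deposited log2 signals per transcript cluster, and their processing notes name Affymetrix Expression Console 1.0; background correction, normalization and summary method are not given in the sources used here. The values have no detection calls, so a dim signal may be background. The number of arrays limits the precision.

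Clusters were named from the platform annotation (21789 of 35556 have 1 symbol), and the cluster with the highest mean stood for a gene. The 60% of genes with the highest means entered limma (version 3.58.1, R 4.3.3): 4 group means fitted to all 8 arrays (4 residual and 9.32 prior degrees of freedom), 6 comparisons, and Benjamini-Hochberg adjustment over all tested genes within each at 0.05. The script was tested on simulated arrays. Members, gene lists and tests were chosen with earlier results of these data known. Named genes were all members, the called genes of each list (up to 4 per direction, or the 2 with the smallest p where none was called), and the 5 genes most like each member by Pearson r. Called markers and other genes named for their levels (Alb, S100a8, S100a9, Ngp, Ltf, Adipoq, Il6) were chosen after their values were seen. Replicate numbers name randomly drawn sets of mice and do not pair the samples. Counts of called list genes with an array left out were added after seeing the data.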

Additional observations from a re-analysis of the deposited data

How the results depend on the processing

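Over 6 comparisons and 14 or 15 alternatives each, 625 values of the members kept their direction and side of the threshold, 38 lost a call, 35 gained one and 14 changed sign. Of the values of other named genes, 192 stayed on their side and 138 lost the call. With any 1 array left out, the members called ranged from 0 to 3 in LFD+As against LFD, from 0 to 5 in HFD against LFD, from 0 to 4 in HFD+As against LFD, from 0 to 1 in HFD+As against HFD, and from 0 to 3 in the interaction. In LFD+As against LFD the count of 1 became 0 with no low-signal filter, with every transcript cluster tested, with quantile normalization and with the gene span trend removed, and 2 with an intensity trend or with only the groups compared. In HFD against LFD the count of 3 became 0 with every cluster and 5 with the intensity trend. The Saa3 call of that comparison was also lost with no low-signal filter (limma adjusted p = 0.0964). So it was with quantile normalization (adjusted p = 0.102) and with the span trend removed (adjusted p = 0.0913). In HFD+As against LFD the count became 0 with every cluster. The fit of every cluster had 2.91 prior degrees of freedom and called 0 of all 35556 clusters in any comparison. The fall of Orm2 in HFD+As against HFD was called in 0 of the fits with no filter, every cluster, quantile normalization, span trend removed or replicate block. With only those groups 4 members were called lower (Saa1, Saa2, Lcn2 and Orm2). In the interaction 2 (Saa1 and Lcn2) were called with the intensity trend. Signs turned for Saa3 in HFD+As against HFD (0.061 with quantile normalization, 0.009 with the span trend removed, -0.83 to 0.72 leaving out arrays). In HFD+As against LFD+As they turned for Orm3 (0.031 with quantile normalization) and Orm1 (-0.04 with the span trend removed). Leaving out arrays, that comparison ran from -1.09 to 0.32 for Saa1, -0.89 to 0.044 for Saa2, -0.73 to 0.42 for Lcn2, -0.021 to 0.043 for Orm1 and -0.30 to 0.22 for Orm3, and HFD+As against LFD from -0.16 to 0.42 for Orm2 and -0.16 to 0.36 for Orm3. The causes were not tested. Between same-numbered pools, the replicate 1 minus replicate 2 differences correlated across genes at -0.217 to 0.179 between groups, so the numbers were not treated as pairs. With the replicate block all genes called in HFD+As against HFD numbered 230, against 434 without it, and the members' counts in the other comparisons did not change by over 1.5 times. Over all genes, the calls across the settings ran from 0 to 26 in LFD+As against LFD (8 as reported), 0 to 72 in HFD against LFD (55), 0 to 2119 in HFD+As against LFD (1909), 0 to 1121 in HFD+As against HFD (434), 0 to 1481 in HFD+As against LFD+As (1227) and 0 to 23 in the interaction (0). Removing the span trend moved the split of higher and lower calls to 540 and 551 in HFD+As against LFD (430 and 1479 as reported) and to 20 and 20 in HFD+As against HFD (45 and 389). With only HFD+As and LFD in the fit the prior degrees of freedom were 157, so its p-values are very small.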

Other observations

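Proteins whose hepatic output is known to fall in the acute phase did not move together. Of 10 such genes tested, Serpina6, which encodes corticosteroid-binding globulin, fell by 0.87 log2 units in HFD+As against LFD (SE 0.13, limma adjusted p = 0.00333, n = 2 pools per group) and was called with any 1 array left out (-0.89 to -0.85). It was the only member of that list called in any of the 6 comparisons, 1 of 10 where 12.4% of all tested genes were called lower in HFD+As against LFD, and stood at -0.48 in HFD and -0.50 in LFD+As without passing. Of 10 glucocorticoid response genes, Pck1, a gluconeogenesis gene, rose by 0.72 (adjusted p = 0.0305) in HFD+As, and Dusp1, a phosphatase gene, fell by 1.02 (adjusted p = 0.0132), Serpina6 as above, and Nr3c1, the glucocorticoid receptor gene, by 0.48 (adjusted p = 0.0148). These are 1 of 10 higher and 3 of 10 lower, where 3.59% of all tested genes were called higher and 12.4% lower. The Pck1, Dusp1 and Nr3c1 calls held with 4, 4 and 5 of 8 arrays left out in turn. Of the 6 tested receptors and partners of serum amyloid A and lipocalin 2, 0 were called by limma in any comparison, and at most 2 had an unadjusted p under 0.05 in 1 comparison. Scarb1, a receptor for high-density lipoprotein, had the smallest p, at -0.53 in HFD+As against HFD (unadjusted p = 0.0025, adjusted p = 0.0566).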
